A study of Mus musculus with 6 samples.

Results

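Adipokines are proteins that fat cells release into the circulation or to their neighbours, and 10 of their genes were followed here in 3T3-L1 cells: Adipoq, Lep, Retn, Rbp4, Apln, Nampt, Rarres2, Agt, Angptl4 and Lcn2. They were found by symbol among the 54752 genes of each table, and all 10 had a row. 3T3-L1 is a clonal mouse fibroblast line that can be turned into fat cells in culture. The series compared 3 libraries labelled 3T3-L1 preadipocyte with 3 labelled 3T3-L1 adipocyte, the labels giving C57BL/6J as strain and embryo as tissue for both. Both groups carry the same medium description (10% BCS, DMI and 10% FBS), with no separate treatment and no genetic change listed. That description does not tell which of these each group received. Effects of the medium and of the fat cell state therefore cannot be told apart. The labels give neither the day of harvest nor whether the libraries are separate cultures. The p-values therefore reflect the scatter of these 6 libraries alone, possibly a technical one.

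Each library held between 22496486 and 26314076 expected counts in all. All 6 fat cell markers rose (Fabp4, a fatty acid carrier, was the most abundant) and all 6 preadipocyte markers fell (Dlk1 the most abundant). Over all tested genes 35.7% were called higher and 37.9% lower. The marker lists were chosen with earlier results of these data known, so these counts are a description and not an independent check. Markers of other adipokine-making cells were near 0. The leukocyte genes Adgre1 and Itgam had no count in any library and Ptprc had 1, the hepatocyte genes Alb and Ttr had none, and the endothelial gene Cdh5 had 1. The 7 leukocyte markers summed to 6.29 to 8.02 TPM in preadipocytes and 2.20 to 4.12 TPM in adipocytes, with Cd14 the most abundant. The 6 hepatocyte markers summed to at most 0.41 TPM with Apoa1 leading, and the 6 endothelial ones to at most 1.24 TPM with Vwf leading. Of 5 brown fat cell markers 2 could be tested, and they went in opposite directions. Cidea, the most abundant, rose to 5.35 ± 1.55 TPM (SD, n = 3) in adipocytes, and Eva1a fell from 4.14 ± 0.22 TPM (SD, n = 3) in preadipocytes to no read. Ucp1 had 1 count in all. Adipocyte library 2 held more ribosomal RNA (0.965% of counts) than the other 5 (0.0775% to 0.224%), and the 8 rises reported next were called without it as well.

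As background, adiponectin, leptin and resistin (Adipoq, Lep and Retn) are hormones made largely by fat cells in mice. Adiponectin raises insulin sensitivity, leptin reports fat stores to the brain, and resistin opposes insulin action. Apelin (Apln) and chemerin (Rarres2) act through G protein-coupled receptors, and angiotensinogen (Agt) is cut into the blood pressure peptide angiotensin. Angptl4 inhibits lipoprotein lipase, retinol-binding protein (Rbp4) and lipocalin 2 (Lcn2) are lipocalins that carry small molecules, and Nampt is an enzyme of NAD synthesis that is also found outside cells.

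In adipocytes 8 of the 10 genes rose, in the quasi-likelihood test of edgeR (Benjamini-Hochberg adjusted p of at most 0.05). Of all 14726 tested genes, 73.5% were called in that test, 35.7% as higher and 37.9% as lower. Adipoq and Retn went from a handful of reads to places 19 and 36 among all genes by mean TPM. Agt, Rarres2, Nampt and Apln were already present in preadipocytes and rose from there, while Lep and Lcn2 rose but stayed low. Angptl4, the most abundant of the 10 in preadipocytes, did not pass the test, and Rbp4 had 1 read in all 6 libraries and could not be tested. None was called lower; the count was 0 at an unadjusted p under 0.05 as well, and 0 with DESeq2. Under 3 alternative scalings Angptl4 was lower, as given below. Of the 9 genes that passed the filter on low counts, 3 (Adipoq, Lep and Retn) had under 10 counts in each preadipocyte library. They passed only through their adipocyte level. So did Lcn2, with 9, 8 and 11 counts in preadipocyte libraries 1, 2 and 3.

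**Figure D1:**
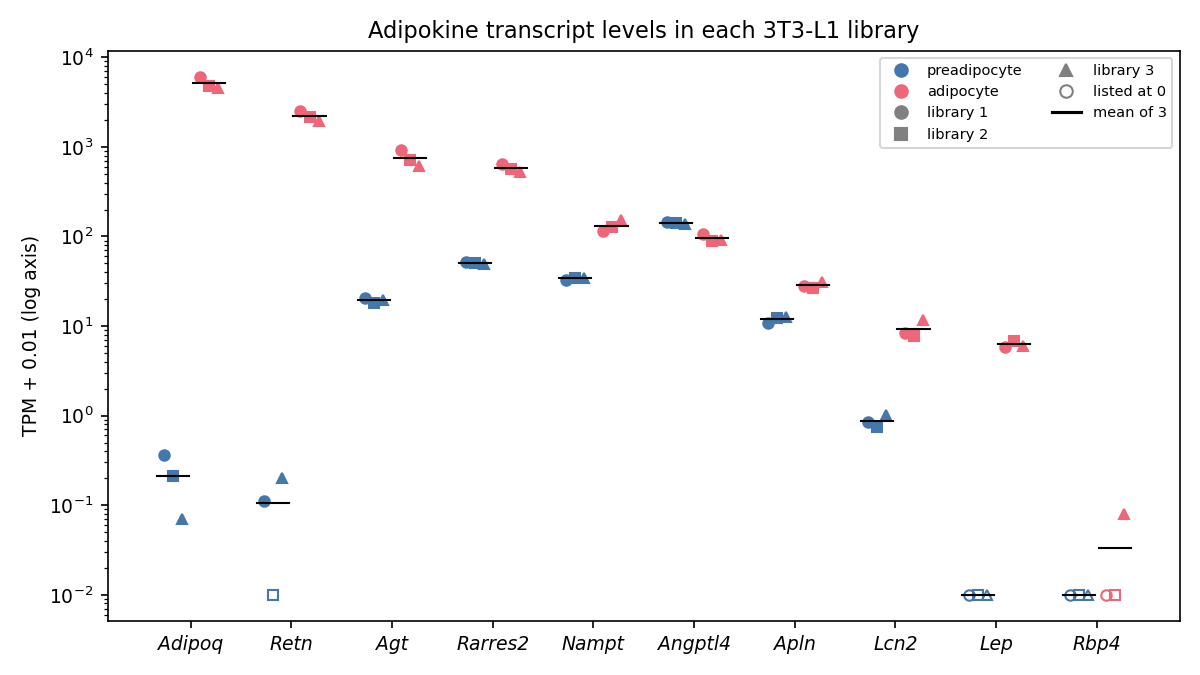
Level of each of the 10 genes in each library, as TPM + 0.01 on a log axis, with preadipocyte libraries in blue, adipocyte libraries in red, a bar at the mean of 3 and open symbols for genes listed at 0. The groups are apart for 8 genes that are higher in adipocytes, Angptl4 is the one lower by TPM, and Rbp4 is at 0 in all libraries except adipocyte library 3.

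The stretches before the start sites of Adipoq, Lep, Retn, Agt and Nampt are shown because these genes rose together from very different starting levels. Each was taken up to the RefSeq start (GRCm38.p6), 200 bases long except for Lep, on the plus strand for all but Agt. The Lep stretch has 199 bases, as the base next to that start lies in a Lep exon of GENCODE M21 and was left out. As printed, no stretch holds an exon of GENCODE M21. The RefSeq start of Nampt lies inside the GENCODE gene, so its stretch is intronic there. The positions are chr16:23146336-23146535 for Adipoq, chr6:29060021-29060219 for Lep, chr8:3655570-3655769 for Retn, chr8:124569707-124569906 for Agt and chr12:32820135-32820334 for Nampt. Capitals mark matches to the motifs searched on both strands.
Adipoq: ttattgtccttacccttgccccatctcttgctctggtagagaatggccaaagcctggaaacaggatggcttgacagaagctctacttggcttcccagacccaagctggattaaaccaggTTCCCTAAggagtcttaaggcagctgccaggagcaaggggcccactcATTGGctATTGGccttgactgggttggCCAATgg
Lep: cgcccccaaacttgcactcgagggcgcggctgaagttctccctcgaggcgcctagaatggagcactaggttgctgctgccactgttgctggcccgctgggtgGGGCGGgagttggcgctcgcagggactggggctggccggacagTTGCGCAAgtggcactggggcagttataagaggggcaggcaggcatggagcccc
Retn: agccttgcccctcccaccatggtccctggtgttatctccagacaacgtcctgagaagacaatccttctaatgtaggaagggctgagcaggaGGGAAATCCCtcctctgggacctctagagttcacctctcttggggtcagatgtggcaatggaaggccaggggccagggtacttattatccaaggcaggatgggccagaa
Agt: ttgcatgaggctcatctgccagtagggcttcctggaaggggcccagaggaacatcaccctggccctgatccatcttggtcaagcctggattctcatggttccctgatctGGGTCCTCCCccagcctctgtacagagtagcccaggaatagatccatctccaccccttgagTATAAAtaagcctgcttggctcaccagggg
Nampt: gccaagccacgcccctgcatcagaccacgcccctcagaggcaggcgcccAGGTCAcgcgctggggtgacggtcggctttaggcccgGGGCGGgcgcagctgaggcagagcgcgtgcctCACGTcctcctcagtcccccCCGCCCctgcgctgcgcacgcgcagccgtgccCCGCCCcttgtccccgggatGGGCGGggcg
Windows of 250 bases were found for 8 of the 10 genes; none was found for Rarres2 or Angptl4. The Lep stretch holds the C/EBP palindrome TTGCGCAA, which starts 55 bases before the start site and is present in 54 of 32851 promoter windows of that length (0.164%). The looser C/EBP pattern TTNNGNAA, which includes that palindrome, matched 4 genes (Adipoq, Lcn2, Lep and Rbp4) and 36.8% of all windows. A TATAAA box lay 30 bases before the Agt start, and 12.4% of windows hold one. Adipoq had 3 matches to CCAAT, found in 33.8% of windows, and Retn and Agt each had 1 to the NF-kB pattern, GGGA and CC with 4 bases between (17.6%). Nampt had the PPAR half-site AGGTCA (14.0%), 5 GC boxes (GGGCGG, 32.7% of windows with at least 1), the farthest of them 244 bases before the start and so outside the printed stretch, and the hypoxia core ACGTG (16.6%). Neither the PPAR direct repeat, AGGTCA written 2 times with 1 base between (0.0335% of windows), nor CACGTG (6.02%), which contains ACGTG, occurred in a window of these genes. GC content of the windows ran from 40.8% for 1 of the 2 Rbp4 windows (70.8% for the other) to 75.6% for Nampt, with Adipoq at 48.8%, against a median of 52.4% over all windows. Windows of Rbp4, which could not be tested, also held the NF-kB pattern, the hypoxia core and the GC box. They held the motif matched 3 times in Adipoq and the box before the Agt start as well. GC boxes also lay in the windows of Apln, Lcn2 and Lep. A match is a description of letters and not a bound site, and the calls of the genes do not follow 1 shared motif.

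Adipoq (ENSMUSG00000022878.5, chromosome 16, 23146536 to 23158028, GRCm38) was listed at 0.35, 0.20 and 0.06 TPM in preadipocyte libraries 1, 2 and 3 and at 6086, 4788 and 4586 TPM in adipocyte libraries 1, 2 and 3. All 3 adipocyte libraries were far above all 3 preadipocyte libraries, and library 1 was the highest of its group. The preadipocyte libraries held 9 reads together and the adipocyte libraries 306707, a ratio of scaled counts of 39500 (95% Poisson interval for the 9 reads 20810 to 86380; edgeR adjusted p = 1.92e-09). Adiponectin transcripts made up 0.403% of all counts in adipocytes. The 1292-base transcript took 99.2% to 99.6% of the Adipoq estimate there, and the 539-base transcript the rest.

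Retn (ENSMUSG00000012705.16, chromosome 8, 3655770 to 3660110) was listed at 0.10, 0 and 0.19 TPM in preadipocyte and 2498, 2174 and 1966 TPM in adipocyte libraries 1, 2 and 3. The groups did not overlap. Reads went from 3 to 83162, a ratio of 32130 (95% Poisson interval 10990 to 155800; edgeR adjusted p = 1.84e-09). The fitted log2 fold change was 14.79 and moved to 15.59 without preadipocyte library 3, which holds 2 of the 3 preadipocyte reads. The 874-base transcript made up almost all of it, since the 1139-base one took 1.06% to 1.44%. Among its close relatives, the resistin-like genes Retnlb and Retnlg had no read in any library and Retnla had 2, both in adipocytes.

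Lep (ENSMUSG00000059201.12, chromosome 6, 29060220 to 29073877) had no read in any preadipocyte library and 336, 353 and 330 reads in adipocyte libraries 1, 2 and 3. The adipocyte level was 5.85, 6.83 and 6.04 TPM, so Lep went from undetected to a low level that varied little between libraries. Against a floor of 3 reads over the preadipocyte group, it was at least 394-fold higher (edgeR adjusted p = 1.73e-07). All Lep reads were assigned to the 3259-base transcript in each adipocyte library. By TPM, Lep stayed at place 8931 among all genes in adipocytes, below Adipoq at place 19.

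Agt (ENSMUSG00000031980.9, chromosome 8, 124556534 to 124569706) was listed at 20.4, 18.3 and 19.4 TPM in preadipocyte and 922.9, 718.9 and 614.2 TPM in adipocyte libraries 1, 2 and 3. Among Adipoq, Retn, Agt and Rarres2 it had the widest spread, with a coefficient of variation of 20.9% in adipocytes. The fitted log2 fold change was 5.81 (SE 0.19, edgeR adjusted p = 1.89e-08). Rarres2 (ENSMUSG00000009281.6, chromosome 6, 48569696 to 48572789), the chemerin gene, had 52.5, 50.6 and 48.8 TPM in preadipocyte and 643.1, 562.0 and 527.6 TPM in adipocyte libraries. It rose by 4.04 in log2 terms (SE 0.11, edgeR adjusted p = 8.17e-09). Its 3' end lies in the span of Lrrc61 on the other strand, and without a statement on strand the reads of this overlap cannot be told apart. Lrrc61 itself was at 18.1 and 21.5 TPM in preadipocytes and adipocytes.

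Nampt (ENSMUSG00000020572.8, chromosome 12, 32819545 to 32853349) was listed at 32.9, 34.7 and 34.4 TPM in preadipocyte and 115.1, 127.5 and 152.3 TPM in adipocyte libraries 1, 2 and 3. The groups did not overlap, and library 3 was the highest adipocyte library, unlike for Adipoq. The log2 fold change was 2.48 (SE 0.10, edgeR adjusted p = 6.04e-08). The noncoding gene Gdap10 lies within its span on the same strand and was at 2.19 and 3.96 TPM in preadipocytes and adipocytes. Apln (ENSMUSG00000037010.7, chromosome X, 48025146 to 48034853), the apelin gene, had 10.9, 12.2 and 12.5 TPM in preadipocyte and 28.1, 26.4 and 31.3 TPM in adipocyte libraries. Its rise was the smallest of the 8 by edgeR, with a log2 fold change of 1.79 (SE 0.086, adjusted p = 1.53e-07). Lcn2 (ENSMUSG00000026822.14, chromosome 2, 32384633 to 32388252) had 0.83, 0.73 and 1.0 TPM in preadipocyte and 8.31, 7.64 and 11.8 TPM in adipocyte libraries. It rested on 28 preadipocyte and 365 adipocyte reads, and rose by 3.89 in log2 terms (SE 0.25, edgeR adjusted p = 9.70e-07).

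**Figure D2:**
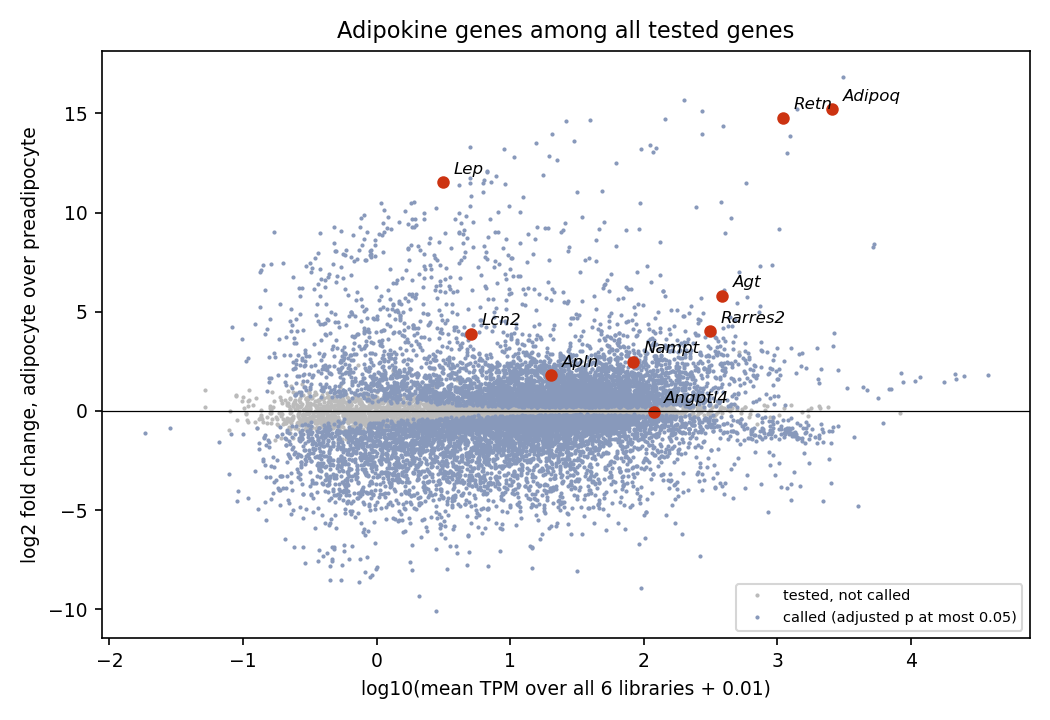
Fitted log2 fold change of adipocyte over preadipocyte libraries against log10 of the mean TPM + 0.01 over all 6 libraries, for 14726 tested genes, with 9 adipokine genes as red points (Rbp4 was not tested). Adipoq and Retn lie near the top at 15.2 and 14.8, and Angptl4 lies at -0.04; the values of Adipoq, Retn and Lep depend on the prior count because of their few preadipocyte reads.

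Set among all tested genes, 5 of the 10 (Adipoq, Retn, Lep, Agt and Rarres2) were called and at least 16-fold higher, a size reached by 3.47% of tested genes. By fitted fold, Adipoq stood at place 4 and Retn at place 6 of 14726, whereas Nampt stood at place 1012 and Apln at place 1617. By TPM the groups did not overlap for 8 of the 10 in the higher direction, where 23.0% of tested genes did the same. In TMM-scaled CPM the groups were also apart for 8, again all higher, against 36.8% of tested genes apart as higher and 76.5% apart in either direction. The median log2 fold change was 4.04 over the 9 tested genes and -0.06 over all tested genes. Adipoq, Lep, Retn and Lcn2 passed the low-count filter only through their adipocyte level, so a fall could not have been called for them. The adipokine genes were also chosen with earlier results of these data known. The counts, places and median given here are therefore a description and not a test of the group.

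Angptl4 (ENSMUSG00000002289.16, chromosome 17, 33773750 to 33781830) differed from the rest. It was listed at 146.8, 139.7 and 137.2 TPM in preadipocyte and 106.7, 87.9 and 90.6 TPM in adipocyte libraries 1, 2 and 3. By TPM each adipocyte library was below each preadipocyte library, a ratio of means of 0.673, but 56.7% of tested genes were lower in this way. In TMM-scaled CPM the groups overlapped, at 157.5, 142.0 and 140.2 in preadipocyte and 162.7, 132.5 and 132.0 in adipocyte libraries. The log2 fold change was -0.04 (SE 0.10, edgeR adjusted p = 0.725). It was -0.37 with total counts (adjusted p = 0.00611), -0.57 with limma on log2(TPM + 1) (adjusted p = 0.000934) and -0.58 with limma on log2(TPM + 0.1) (adjusted p = 0.00239). Over the 17 alternatives its log2 fold change ran from -0.58 to 0.07 and its adjusted p from 0.000934 to 0.921. These scalings moved the median of all genes as well, by -0.33, -0.48 and -0.51 in the same order, amounts close to the shift of Angptl4 itself. Over all genes, the share of calls in the higher direction went from 48.5% under TMM to 34.3% under total counts and to 28.2% and 28% under the limma fits.

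**Figure D3:**
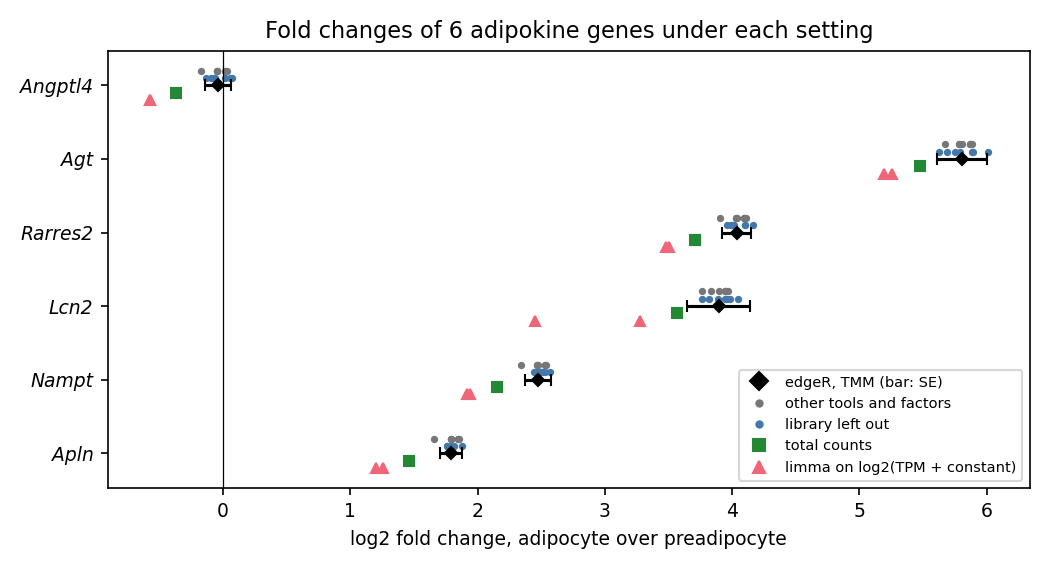
Log2 fold change of 6 adipokine genes on the horizontal axis under edgeR with TMM (black diamonds, bars are SE) and under each alternative. The 5 rising genes stay right of 0 in all settings, while Angptl4 lies around 0 except with total counts (-0.37) and with limma on TPM (-0.57 and -0.58).

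Rbp4 (ENSMUSG00000024990.12, chromosome 19, 38116629 to 38125281) had 1 read in adipocyte library 3 and none in any other library. That is under the floor of 3 reads over the 3 libraries of a group (0.0383 CPM for preadipocytes, 0.0443 CPM for adipocytes), so no fold was computed. Transcripts of Rbp4 were thus not detected in either state. The 2 transcripts listed for Rbp4 had no match in GENCODE M21 by identifier with version. A part of depth or of the gene model in this low count was not tested. Its neighbour Ffar4, a fatty acid receptor gene 2366 bases away, was listed at 0 TPM in preadipocytes and reached 38.9 TPM in adipocytes. The 20 nearest protein-coding genes on either side of the 10 adipokine genes went in several directions. Of them 9 were higher, 4 lower and 4 not called, and 3 could not be tested, against 35.7% higher and 37.9% lower over all tested genes. Next to Adipoq, Rfc4 was not called and St6gal1 fell by 2.55 in log2 terms, and next to Angptl4 neither Rab11b nor Kank3 was called.

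The pool of adipokine transcripts changed in size and in make-up. The 10 genes summed to 258.3 ± 5.85 TPM (SD, n = 3) in preadipocytes and 8967 ± 1280 TPM (SD, n = 3) in adipocytes, the latter 0.896% ± 0.127 of all transcripts. In preadipocytes Angptl4 made up 54.7% ± 0.67 of the pool, Rarres2 19.6% ± 0.32, Nampt 13.2% ± 0.67, Agt 7.48% ± 0.32 and Apln 4.60% ± 0.43. In adipocytes Adipoq made up 57.4% ± 1.05, Retn 24.7% ± 0.81, Agt 8.34% ± 0.60 and Rarres2 6.46% ± 0.25, and Angptl4 1.06% ± 0.06 (SD, n = 3 throughout). Lep was 0.0707% of the adipocyte pool. In bulk RNA, fewer cells of a type and less RNA per cell cannot be told apart.

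**Figure D4:**
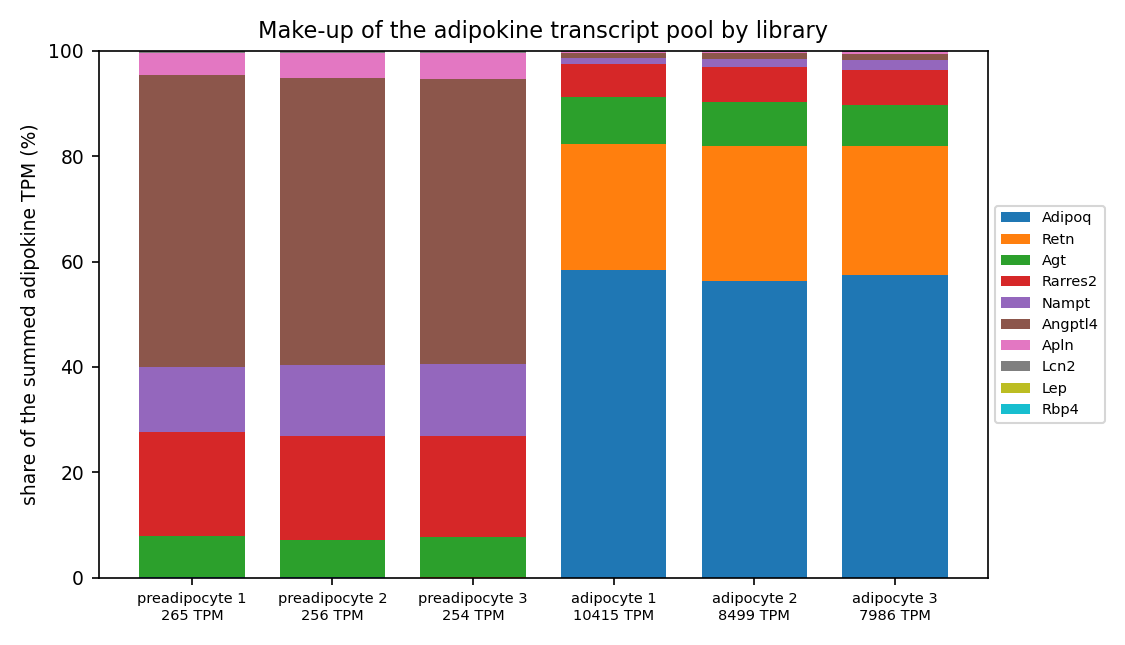
Share of each of the 10 genes in their summed TPM, as stacked bars from 0 to 100% for each library, with the summed TPM under each bar. Angptl4 takes 54.7% of the preadipocyte bars on average, and Adipoq with Retn take 57.4% and 24.7% of the adipocyte bars.

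Ordered by level, the adipocyte libraries gave Adipoq, Retn, Agt, Rarres2, Nampt, Angptl4, Apln, Lcn2, Lep and Rbp4. Of these neighbours, Agt and Rarres2 overlapped in TPM between libraries, so their order is not beyond their spread. In preadipocytes the order was Angptl4, Rarres2, Nampt, Agt, Apln and Lcn2 without overlap, followed by Adipoq, Retn, Lep and Rbp4, which overlapped at or near 0. The genes did not all vary together between adipocyte libraries. Adipoq, Retn, Agt and Rarres2 each ran downward in TPM from library 1 over library 2 to library 3, an order not seen for the other genes in TPM. In TMM-scaled CPM Angptl4 ran downward as well, at 162.7, 132.5 and 132.0. Library 1 was the highest for 5 genes (Adipoq, Retn, Rarres2, Agt and Angptl4), library 3 for 3 (Apln, Nampt and Lcn2) and library 2 for Lep. The ratio of library 1 to the mean of libraries 2 and 3 was 1.38 for Agt, 1.30 for Adipoq and 0.823 for Nampt. Among 12040 tested genes with at least 1 TPM in adipocytes, the quartiles of this ratio were 0.844 and 1.13. The fat cell markers summed to 18270 TPM in library 1 and to 16680 in each of the others, and the preadipocyte markers to 222.3, 178.8 and 175.4 TPM; their part in these differences was not tested.

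By pattern over the 6 libraries, the gene most like Adipoq was Cfd, the gene of the secreted protease adipsin, at a Euclidean distance of 0.609 in log2(TPM + 1). Thrsp, a regulator of lipid synthesis, was the nearest to Retn (0.461), S100a1 to Agt (0.535), Taldo1 to Rarres2 (0.0941) and Rrp1 to Angptl4 (0.135). Cfd itself was at 0.10, 0 and 0.10 TPM in preadipocyte and 7803, 5523 and 5273 TPM in adipocyte libraries 1, 2 and 3, so its level was above that of Adipoq in each adipocyte library.

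The receptors for these ligands went in both directions. Of 18 receptor and binding protein genes 8 were testable, and of these 3 rose, 4 fell and 1 was not called, against 35.7% higher and 37.9% lower among all tested genes; the median log2 fold change was 0.00136 in the list and -0.06 over all tested genes. The adiponectin receptor gene Adipor2 was at 40.3, 41.8 and 42.6 TPM in preadipocyte and 192.7, 195.8 and 198.6 TPM in adipocyte libraries 1, 2 and 3. It rose by 2.78 in log2 terms (SE 0.073, edgeR adjusted p = 5.47e-09), the most of the list, and Adipor1 by 0.78 (SE 0.090, adjusted p = 5.05e-05). Cdh13, the surface cadherin that binds adiponectin, went the other way. It was at 46.6, 45.6 and 45.6 TPM in preadipocytes and at 3.11, 3.24 and 2.92 TPM in adipocytes, a log2 fold change of -3.60 (SE 0.086, edgeR adjusted p = 3.68e-09). The genes of adiponectin-binding proteins thus moved in both directions. Tlr4, a reported resistin receptor, rose by 0.84 (SE 0.15), a call lost with limma on log2(TPM + 1) (0.31, adjusted p = 0.144). Cap1, another resistin-binding protein and the most abundant of the list, fell by 0.78 in log2 terms (SE 0.082), and Slc22a17, a lipocalin 2 receptor, fell by 1.75 (SE 0.17).

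Receptors for the other ligands had few reads in either state. Lepr, the leptin receptor, measured 0.187 ± 0.085 TPM in preadipocytes and 0.417 ± 0.257 TPM in adipocytes (SD, n = 3) and was not called (log2 fold change 0.96, edgeR adjusted p = 0.103). It was higher with an effective length offset (1.69, adjusted p = 0.0165), without preadipocyte library 2 (1.48, adjusted p = 0.0353) and without adipocyte library 2 (1.31, adjusted p = 0.03). The apelin receptor gene Aplnr had 10 and 3 reads in preadipocytes and adipocytes, and the chemerin receptor gene Cmklr1 had 5 and 7. The angiotensin receptor gene Agtr1a had 6 and 1 reads, while Agtr2 fell from 1.38 ± 0.26 to 0.597 ± 0.129 TPM (SD, n = 3; edgeR adjusted p = 0.00408). Stra6, the receptor for retinol-binding protein, had 3 reads in preadipocytes and none in adipocytes. Of the signalling genes below the adiponectin and leptin receptors 5 rose and 4 fell of 10 (median log2 fold change 0.23), beside 35.7% and 37.9% of all tested genes, and 2 fell without adipocyte library 2. The kinase subunit gene Prkaa2 rose by 3.96 (SE 0.33), Ppargc1a rose by 1.22 (SE 0.094), and Prkag1, the most abundant, rose by 0.86 (SE 0.10). Socs3, an inhibitor of leptin signalling, fell by 2.20 in log2 terms (SE 0.12), and Appl1, an adaptor of the adiponectin receptors, fell by 0.99 (SE 0.12).

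**Figure D5:**
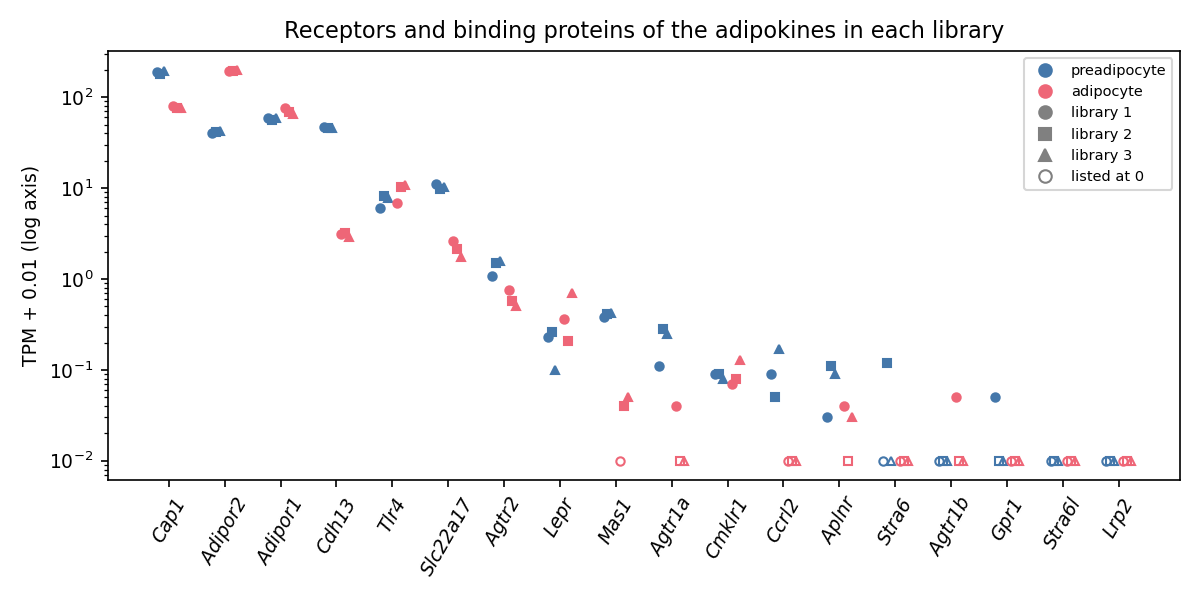
Level of 18 receptor and binding protein genes in each library, as TPM + 0.01 on a log axis, with preadipocyte libraries in blue, adipocyte libraries in red and open symbols for genes listed at 0. Adipor2 is higher and Cdh13, Cap1 and Slc22a17 are lower in all adipocyte libraries, and 10 genes have too few reads to be tested.

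Genes that fold and modify adiponectin in the endoplasmic reticulum were called higher in 3 of 9 cases and lower in 3 (median log2 fold change 0.16), near the 35.7% and 37.9% of all tested genes. Ero1l, an oxidase that helps adiponectin leave the reticulum, was at 25.5, 28.6 and 28.1 TPM in preadipocyte and 398.1, 423.8 and 615.5 TPM in adipocyte libraries 1, 2 and 3. It rose by 4.66 in log2 terms (SE 0.19, edgeR adjusted p = 6.75e-08), with library 3 the highest, and Gstk1, which promotes adiponectin assembly, rose by 1.72 (SE 0.11). Erp44, which retains adiponectin in the reticulum, had a log2 fold change of -0.30 (SE 0.079, adjusted p = 0.00816), a call lost without the low-count filter (-0.23, adjusted p = 0.0722) and without adipocyte library 3 (-0.225, adjusted p = 0.0588). P4hb, the most abundant of the list, fell by 0.78 in log2 terms (SE 0.083) and the lysyl hydroxylase gene Plod2 fell by 1.06 (SE 0.14), while its relative Plod1 rose by 0.87 (SE 0.11). With limma on log2(TPM + 1), 3 of the 9 were higher and 6 lower, and with DESeq2, with the replicate block and without both libraries numbered 1, 5 were higher and 3 lower.

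Around Angptl4, the gene of its target lipoprotein lipase rose. Lpl was at 436.8, 456.6 and 449.3 TPM in preadipocyte and 4589, 4762 and 5105 TPM in adipocyte libraries 1, 2 and 3 (log2 fold change 3.91, SE 0.12, edgeR adjusted p = 1.19e-08). Of the 6 genes of the lipase list 5 were testable, of which 4 rose and 1 fell (median log2 fold change 1.04), beside 35.7% and 37.9% of all tested genes: the maturation factor gene Lmf1 rose by 1.07 (SE 0.10) and Lmf2 fell by 0.62 in log2 terms (SE 0.11). The call of Sel1l (0.34, edgeR adjusted p = 0.00938) was lost with upper-quartile factors, total counts and both limma fits on TPM, leaving 3 rises. Gpihbp1, the capillary docking protein, had 42 and 10 reads and was not tested. It passed the filter and was lower without preadipocyte library 1 or without any 1 of the adipocyte libraries (adjusted p = 0.00364 to 0.0261). Other angiopoietin-like genes differed from Angptl4. Angptl8, which acts with other family members on lipase, had 3 reads in preadipocytes and 2565 in adipocytes, where it was at 75.2, 61.4 and 71.6 TPM. Angptl1 rose by 6.30 (SE 0.24) and Angptl6 rose by 2.47 (SE 0.21), while Angptl2, the most abundant relative, was not called (0.01, adjusted p = 0.918; with total counts -0.32, adjusted p = 0.0173, and lower also with both limma fits on TPM). Over all 21 family relatives of the adipokine genes, 9 were testable, of which 4 rose and 4 fell (median log2 fold change 0.01), near the 35.7% and 37.9% of all tested genes. The C1q domain relative C1qtnf12 rose by 3.88 (SE 0.17), whereas C1qtnf1 fell by 2.42 (SE 0.40) and the lipocalin gene Apod fell by 4.46 in log2 terms (SE 0.14).

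Enzymes that process angiotensinogen were mostly too low to test. Renin (Ren1) had 1 and 3 reads and the converting enzyme Ace had 1 and 12 reads in preadipocytes and adipocytes, so the substrate Agt was abundant where these enzymes were near the limit of detection. Of 9 genes found, 4 were testable, of which 1 rose and 2 fell (median log2 fold change -0.15), beside 35.7% and 37.9% of all tested genes. The aminopeptidase gene Anpep fell from 84.5 ± 3.98 to 4.42 ± 0.27 TPM (SD, n = 3; log2 fold change -3.88, edgeR adjusted p = 6.46e-09). Ctsd, a lysosomal protease and the most abundant, rose by 0.62 in log2 terms (SE 0.13, adjusted p = 0.00202), but with limma on log2(TPM + 1) the difference was 0.10 (adjusted p = 0.456). Atp6ap2, a prorenin receptor, had a log2 fold change of -0.25 (SE 0.087, adjusted p = 0.0295), a call lost with RLE factors (adjusted p = 0.0602), with DESeq2 (0.0653), without the filter (0.15), without preadipocyte library 2 (0.114) or 3 (0.074) and without adipocyte library 1 (0.101) or 2 (0.127).

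In NAD metabolism around Nampt, 6 of 10 tested genes rose and 1 fell (median log2 fold change 0.81), beside 35.7% and 37.9% of all tested genes. The deacylase gene Sirt1 was not called (-0.33, adjusted p = 0.111) but was lower with the replicate block (adjusted p = 0.0113), so that 2 fell, as with upper-quartile factors and total counts; 3 fell with limma on log2(TPM + 1). The mitochondrial deacylase gene Sirt3 rose by 2.30 (SE 0.12), Nnmt, which methylates nicotinamide, rose by 1.68 (SE 0.093) and the NAD kinase gene Nadk, the most abundant, rose by 1.51 (SE 0.081). Nmnat2 fell by 2.0 in log2 terms (SE 0.11), while Nmnat1, which carries out the step after Nampt in the nucleus, rose by 1.35 (SE 0.17). In retinoid handling, the pathway of Rbp4, 5 of 6 tested genes fell and 1 rose (median log2 fold change -1.97), where 37.9% of all tested genes fell and 35.7% rose. The retinoic acid hydroxylase gene Cyp26b1 fell by 4.12 in log2 terms (SE 0.12). Dhrs3, a retinal reductase and the most abundant, rose from 14.1 ± 0.79 to 76.4 ± 5.77 TPM (SD, n = 3). Transthyretin (Ttr), the plasma partner of Rbp4, had no read in any library.

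Among 22 other secreted factors of fat tissue, 15 were testable, of which 4 rose and 9 fell (median log2 fold change -1.46), beside 35.7% and 37.9% of all tested genes. Those that rose were Cfd, Nrg4 (5.17, SE 0.24), Gdf15 (3.06, SE 0.31) and Vegfa (3.43, SE 0.096), a growth factor for blood vessels that reached 410.1 ± 39.2 TPM (SD, n = 3). Ccl2, a chemokine for monocytes, fell from 103.1 ± 7.75 to 1.09 ± 0.12 TPM (SD, n = 3), and Bmp4 went from 45 reads to none. The cytokine genes Il6 and Tnf had at most 6 and 0 reads in a group.

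Of 15 transcription factors known to act on adipokine genes, 9 rose and 4 fell (median log2 fold change 1.11), beside 35.7% and 37.9% of all tested genes. Nr1h3, the liver X receptor alpha gene, rose by 6.14 (SE 0.19), Cebpa rose by 5.10 (SE 0.13) and Pparg, the most abundant, rose by 3.90 (SE 0.079). The other PPAR genes of the list, Ppara and Ppard, were called higher as well. The hypoxia factor genes went apart, since Hif1a fell by 1.04 in log2 terms (SE 0.14) and Epas1 rose by 3.34 (SE 0.094). A part of the listed factors in the level of Angptl4 was not tested. The glucocorticoid receptor gene Nr3c1 had a log2 fold change of -0.35 and was not called (edgeR adjusted p = 0.0774). It was lower with the replicate block (-0.36, adjusted p = 0.000144), with total counts, upper-quartile factors and both limma fits on TPM. It was also lower without preadipocyte library 1 (-0.475, adjusted p = 0.0227) and without both libraries numbered 1 (-0.328, adjusted p = 0.00213). Nfkb1, an NF-kB subunit, fell by 1.33 in log2 terms (SE 0.067). Rela, another subunit, was not called (0.16, edgeR adjusted p = 0.202). It was higher with the replicate block (0.152, adjusted p = 0.0237) and without adipocyte library 3 (0.29, adjusted p = 0.0392). With limma on log2(TPM + 1) and log2(TPM + 0.1) it was lower (-0.364 and -0.371, adjusted p = 0.00835 and 0.0151). Lcn2 is a gene that NF-kB can induce, and a part of NF-kB in its rise was not tested.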

How the data were processed

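Gene tables of 6 RNA sequencing libraries of 3T3-L1 cells were used, 1 table per library. The submitters' processing notes name the builds GRCm38 and mm10 and the tools RSEM, DESeq2, Bowtie2 and Bowtie; the sources used here give no versions, roles, strandedness or read filters. The deposited expected counts are estimated counts that divide reads matching several genes by a model, with no scaling between libraries. In the authors' tables, TPM divides by effective length and brings each library to the same total. The deposited lengths are given in bases, weighted over the isoforms of a gene.

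Of 54752 gene identifiers, 54723 occur in GENCODE M21 (GRCm38) when versions are ignored and 53861 with their version. Expected counts were rounded and tested over all genes with edgeR 4.0.16 (R 4.3.3): filterByExpr, TMM factors, quasi-likelihood F-test on the group, and Benjamini-Hochberg adjustment at 0.05. The code was tested on simulated counts with known folds. CPM uses the TMM-scaled library size, and a floor of 3 counts over the 3 libraries of a group sets a lower bound where all are at 0. Bounds and 95% Poisson intervals cover counting error only. No 2 libraries of the same group were alike within counting noise. The chi-square per degree of freedom was 2.96 for preadipocyte libraries 2 and 3, and 15.5 to 38.6 for the other pairs within a group.

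The 17 alternatives were RLE, upper-quartile and total-count scaling, DESeq2 1.42.0, voom and log2(TPM + constant) fits of limma 3.58.1, no low-count filter, an effective length offset, a replicate block, each library left out, and both libraries numbered 1 left out. For the block the replicate numbers were taken as pairs, which the library titles do not state. Deviations from the group means correlated at 0.659, 0.301 and 0.265 between libraries of the same number. Libraries of unlike number ran from -0.567 to 0.446. The value of 0.446 was for preadipocyte library 2 with adipocyte library 3, so the numbers do not single out pairs for libraries 2 and 3. The adipokine genes and the 16 companion and marker lists were chosen with earlier results of these data known. All 10 adipokine genes are named. From each companion list the most abundant tested gene and up to 2 largest rises and 2 largest falls among called genes are named, and from each marker list the most abundant gene. The gene of most like pattern is the one at the smallest Euclidean distance over log2(TPM + 1) in 6 libraries. One gene that this rule picks is not reported here. Other companion genes were named after their values were seen. Promoter sequences are RefSeq's on GRCm38.p6.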

Additional observations from a re-analysis of the deposited data

How the results depend on the processing

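All 8 genes that rose kept their direction and call under each of the 17 alternatives. Angptl4 was the exception among the 9 tested genes: 1 adipokine gene was lower, and it was Angptl4, with total counts (-0.37), limma on log2(TPM + 1) (-0.57) and limma on log2(TPM + 0.1) (-0.58), where the median of all genes also shifted downward. The cause was not tested. Over all genes, 5252 were higher with TMM, but 3254 and 3177 with the limma fits on log2(TPM + 1) and log2(TPM + 0.1). With the replicate number as a block, 8 adipokine genes were higher and 0 lower, and 5763 genes were higher and 6212 lower over all tested genes; the block changed no call of an adipokine gene. The log2 fold change ran from 2.85 to 11.6 for Lep, from 12.1 to 15.8 for Adipoq and from 11.0 to 15.6 for Retn, lowest with limma on log2(TPM + 1) for each, and highest without adipocyte library 3, preadipocyte library 1 and preadipocyte library 3 in that order. Few reads limit what can be said of Rbp4, with 1 read in all, and of the preadipocyte levels of Adipoq, Retn and Lep, with 9, 3 and 0 reads.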
